A study of Mus musculus with 51 samples.

Results

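The genes described here encode proteins that join the 2 sides of a synapse and anchor its receptors: the neurexins Nrxn2 and Nrxn3, the neuroligins Nlgn1, Nlgn2 and Nlgn3, the scaffold proteins Dlg4, Shank3 and Caskin1, and the kinase subunit Camk2g. They were chosen by their symbols, with earlier results of these data known, and make up 9 of the 24421 genes counted in each library. The question was how their RNA differed between alcohol-exposed and control mice in isolated astrocytes, set against the same difference in total homogenate, the unsorted tissue that holds the RNA of neurons.

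Neurexins sit mainly on the presynaptic membrane and bind neuroligins across the cleft. Inside the postsynaptic cell, neuroligins and receptors are held by scaffold proteins with PDZ domains, among them PSD-95, the product of Dlg4, while on the presynaptic side neurexins bind CASK, a partner of Caskin1. These genes are best known from neurons. Astrocytes also express neuroligins, whose contacts with neuronal neurexins have been tied to the shape of astrocyte processes and to synapse formation.

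Adult male C57BL/6J mice, bought at 8 weeks of age, were studied as 8 control and 9 chronic intermittent ethanol vapor (CIE) animals. CIE mice breathed ethanol vapor for 16 h per day in 4 weekly cycles and were given ethanol (1.6 g/kg) with pyrazole (1 mmol/kg), an inhibitor of alcohol dehydrogenase, before they entered the chambers. Control mice were given saline with the same dose of pyrazole and breathed air in the same kind of chamber, so pyrazole was common to both groups. From the prefrontal cortex of each mouse came 3 libraries: total homogenate, which was 5% of the minced suspension, astrocytes held on ACSA2 beads, and microglia held on Cd11b beads after the ACSA2 step. The cells on beads had gone through enzymatic dissociation and removal of myelin, which the homogenate had not.

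Counts assigned to genes ranged from 2082289 to 10041788 in astrocytes, from 571878 to 6026453 in microglia and from 5042926 to 15594154 in total homogenate. Levels are given as CPM, the counts of a gene per 1000000 counts assigned to genes, with 1 scaling (TMM) over all 51 libraries. A list of 30 neuron markers summed to between 14497 and 19062 CPM in control homogenate and to between 278 and 808 CPM in control astrocytes, where the list stood at 2.63 ± 0.918% of the homogenate of the same mouse (SD, n = 8). All 30 were detected in some astrocyte library, and 13 of them, Gad2, Nefl and Pvalb included, were at 0 in at least 1. The 30 astrocyte markers reached 238 ± 34.6% of their homogenate level. Markers of other glia were also high in the astrocyte libraries: 12 oligodendrocyte markers were at 1022 ± 411% and 20 microglia markers at 501 ± 230% of homogenate. Summed in the same way, 10 endothelial markers were at 408 ± 192% and 12 oligodendrocyte precursor markers at 333 ± 39.1%. By gene, the median log2 difference from homogenate was -0.27 for the precursor, 1.85 for the endothelial and 1.61 for the astrocyte markers. Relative to homogenate these libraries were thus on average more enriched for oligodendrocyte, microglia and endothelial markers than for astrocyte markers. The libraries are called astrocytes here after their label and the ACSA2 step. As the libraries are bulk RNA, fewer cells of a type and less RNA per cell cannot be told apart in any of the values that follow.

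Both adhesion families end in a short tail that PDZ domains bind, which in this set links the neuroligins to the product of Dlg4. The last coding bases of the longest coding transcript of each gene are shown for that reason, read from the GENCODE M21 transcripts, with the last 4 codons before the stop codon in capitals:
Nlgn1: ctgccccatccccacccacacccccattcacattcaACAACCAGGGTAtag
Nlgn2: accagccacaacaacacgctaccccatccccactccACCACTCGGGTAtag
Nlgn3: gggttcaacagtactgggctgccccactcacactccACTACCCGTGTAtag
Nrxn2: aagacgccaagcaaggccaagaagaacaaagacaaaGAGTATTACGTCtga
Nrxn3: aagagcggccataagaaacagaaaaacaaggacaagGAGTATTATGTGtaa
Any 2 of the neuroligins differed at 3 of the 12 bases in capitals and at 19 to 23 of the 51 bases printed. The 2 neurexins differed at 2 of the 12 and at 18 of the 51. Over their aligned coding sequences Nlgn2 and Nlgn3 were 70.5% identical, Nlgn1 and Nlgn2 66.6%, and Nrxn2 and Nrxn3 69.1%. The longest stretch that a pair shared without a mismatch was 17 to 23 bases, far below the read length of 150 bases, so whole reads from these coding sequences could be told apart.

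The genes lie on 8 chromosomes of mm10, with the positions of the same annotation. Nrxn2 (plus strand) is at chr19:6418731-6544169, Nrxn3 (plus) at chr12:88722876-90334935, Nlgn1 (minus) at chr3:25426215-26332460, Nlgn2 (minus) at chr11:69823122-69837784 and Nlgn3 (plus) at chrX:101299168-101325963. Dlg4 (plus) is at chr11:70016942-70047522, Shank3 (plus) at chr15:89499623-89560261, Caskin1 (plus) at chr17:24488601-24508671 and Camk2g (minus) at chr14:20734875-20794088. Exons of Nrxn2 overlap those of Slc22a12 on the opposite strand over 682 bases, 4.94% of the merged exon length, and exons of Caskin1 overlap those of Traf7 over 110 bases, 1.45%. The other 7 genes share no exonic base with another counted gene. The libraries were made with a directional kit, but whether the counting used the strand is not given in the sources used here.

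In control mice the 9 genes kept very different shares of their homogenate level in the astrocyte libraries. Caskin1 was as high in astrocytes, at 321 ± 52.5 CPM (SD, n = 8), as in homogenate, at 301 ± 16.4 CPM, and its level within a mouse was 107 ± 15.6% of that in the homogenate. Camk2g stood at 56.1 ± 12.5%, Nlgn3 at 55.1 ± 13.3%, Nrxn2 at 42.7 ± 8.49% and Nlgn1 at 42.6 ± 14.2%. Nlgn2 followed at 20.9 ± 3.98%, then Shank3 at 10.5 ± 2.87%, Dlg4 at 6.90 ± 1.29% and Nrxn3 at 2.0 ± 1.23%. Nrxn3 was thus the gene whose share came closest to that of the summed neuron markers.

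In 1 edgeR model of all libraries, with p-values adjusted over all genes after Benjamini and Hochberg, 8 of the 9 genes were lower in control astrocytes than in control homogenate, where 40.8% of the 14379 genes tested were lower and 77% differed in either direction. The log2 differences ran from -0.87 for Camk2g (adjusted p = 5.48e-09) to -5.76 for Nrxn3 (adjusted p = 5.44e-26), and that of Caskin1 was 0.09, with a 95% interval from -0.22 to 0.41 (adjusted p = 0.601). The 30 neuron markers were all lower, at a median of -6.12. In control microglia all 9 genes were below homogenate, where 46.1% of genes were and 83.6% differed, by -2.34 (Camk2g) to -5.84 (Nrxn3) on the log2 scale.

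**Figure D1:**
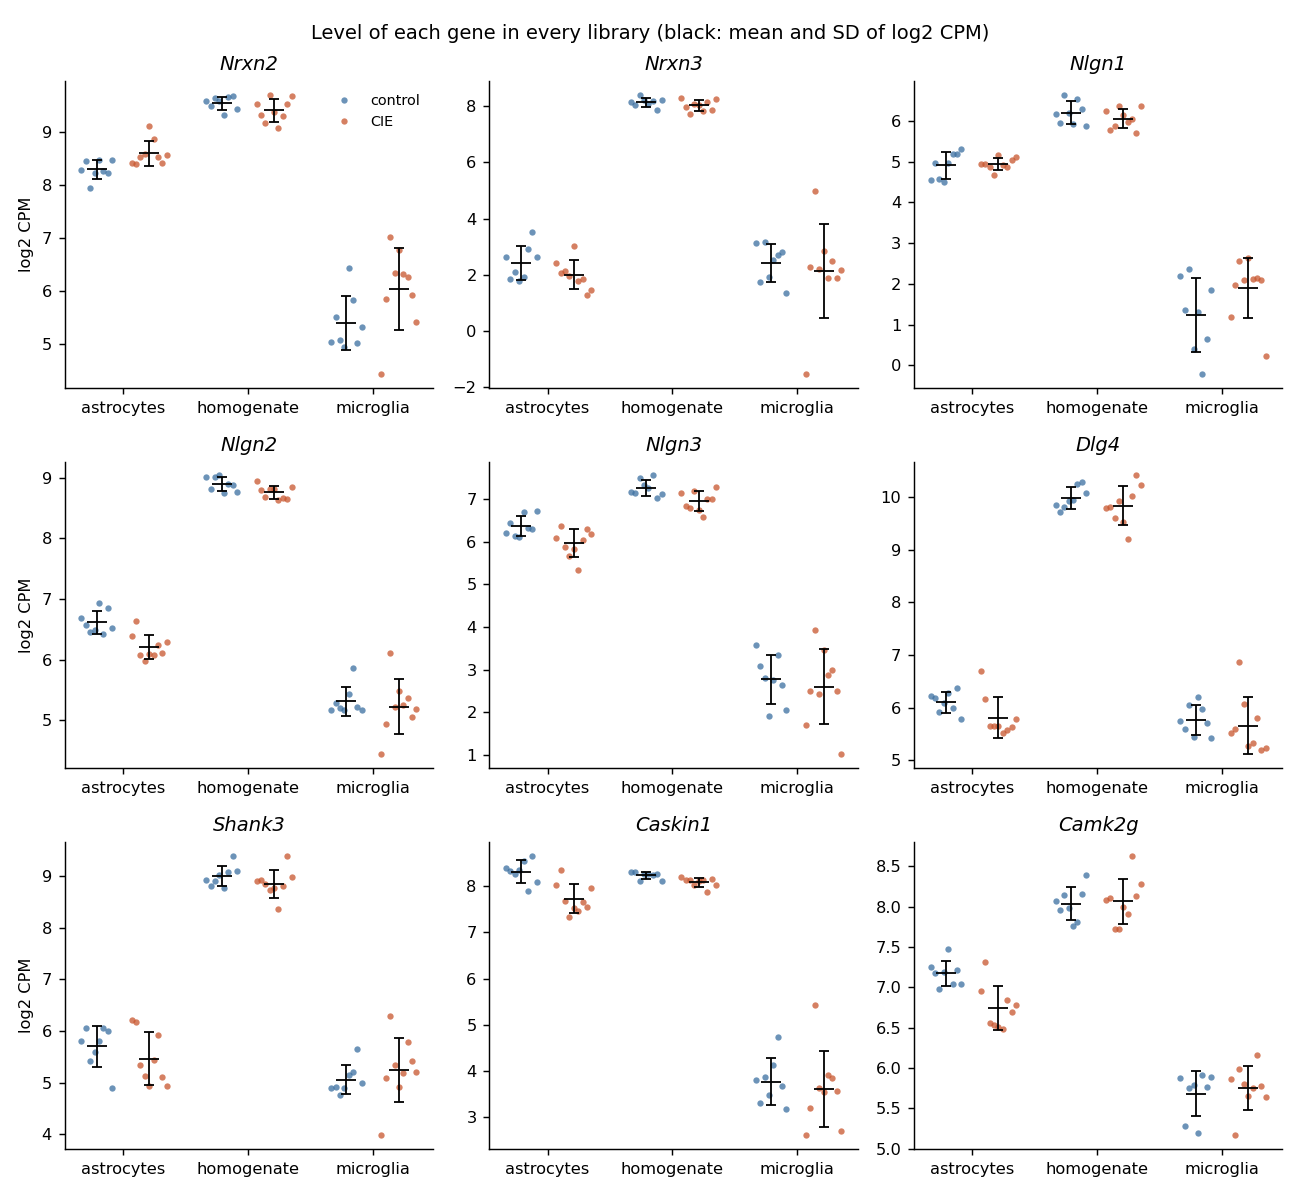
Level of each of the 9 genes in every library, as log2 CPM on the vertical axis, for astrocytes, total homogenate and microglia of control (blue) and CIE (orange) mice, with the mean and SD in black. Caskin1 stands at the same height in control astrocytes and homogenate, and Nrxn3 lies near its microglia level in astrocytes.

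Levels were also divided by the merged exon length, from 5.785 kb for Nlgn2 to 13.812 kb for Nrxn2. That length joins the exons of all annotated transcripts and can exceed that of the RNA present, so the orders below depend on it. Per kilobase of merged exons, the order in control astrocytes was led by Caskin1 at 42.4 ± 6.94 CPM per kilobase (SD, n = 8). Nrxn2 at 22.9 ± 2.76 and Camk2g at 22.6 ± 2.5 came next and did not differ beyond their spread, followed by Nlgn2 at 17 ± 2.34 and Nlgn3 at 8.96 ± 1.53. Shank3 at 5.80 ± 1.41 and Dlg4 at 5.19 ± 0.699 lay within each other's spread, and Nlgn1 at 2.26 ± 0.502 and Nrxn3 at 0.433 ± 0.215 came last. In control homogenate the order was another one: Nlgn2 led at 82.4 ± 6.68 CPM per kilobase and Dlg4 followed at 76.5 ± 11.2, within 1 SD, while Caskin1 was sixth at 39.8 ± 2.16. Among the neuroligins, Nlgn2 had the highest level in astrocytes, homogenate and microglia of control mice alike.

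In astrocytes of CIE mice, Caskin1, Nlgn2 and Camk2g were lower than in controls. Caskin1 fell by 32.5%, Camk2g by 25.3% and Nlgn2 by 24.9%. These 3 of 9 genes passed the edgeR test within astrocytes at an adjusted p under 0.05, against 2.22% lower genes and 5.13% genes in either direction among the 12878 tested. The other 6 did not pass it: Nlgn3, Nrxn3, Dlg4 and Shank3 had negative log2 fold changes, Nrxn2 a positive one, and that of Nlgn1 was near 0. The median log2 fold change of the 9 genes was -0.40, against 0.0033 over all genes tested. DESeq2 called 5 of the 9, adding Nlgn3 and Nrxn2, against 7.68% of all genes. The study had named Caskin1 and Nlgn2 as hub genes of a gene module lower in CIE astrocytes of these same samples. All 9 genes, Camk2g included, were also chosen with earlier results of these data known. The 3 calls, and the count and median above, are therefore no independent evidence.

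Of the presynaptic neurexins, Nrxn2 ranged in control astrocytes from 245 to 357 CPM with a median of 310.2, and in CIE astrocytes from 337 to 552 CPM with a median of 369. All 9 CIE libraries lay above the control median and 6 lay above every control. Its log2 fold change of 0.32 (SE 0.106) had an adjusted p = 0.0878 in edgeR and one of 0.0450 with DESeq2. In homogenate the sign was the other way, from 764 to 667 CPM at the medians, with a log2 fold change of -0.12 (SE 0.0896, adjusted p = 0.756). Nrxn3, the neurexin lowest in the astrocyte libraries, had 11 to 42 counts per library in controls and 11 to 53 in CIE mice, or 3.05 to 11 CPM (median 4.88) and 2.08 to 7.77 CPM (median 3.51). The groups overlapped, and its log2 fold change was -0.48 with a 95% interval from -1.04 to 0.09 (adjusted p = 0.358), which covers falls of the size called in the other genes. In homogenate, where Nrxn3 had 1227 counts or more in every library, it was -0.10 (adjusted p = 0.813).

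Among the postsynaptic neuroligins, Nlgn2, which is found at inhibitory synapses, ranged from 85.3 to 121 CPM (median 93.3) in control and from 62.7 to 98.8 CPM (median 68.9) in CIE astrocytes. The groups overlapped through a single animal: 8 of 9 CIE libraries lay below every control, and the exception was CIE mouse 08 at 98.8 CPM. Its log2 fold change was -0.41 (SE 0.101, adjusted p = 0.0229). In homogenate Nlgn2 went from a median of 473 to one of 445 CPM, a log2 fold change of -0.12 (SE 0.0669, adjusted p = 0.618), with 4 of 9 CIE libraries below every control.

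Nlgn3, an X-linked neuroligin of excitatory and inhibitory synapses, had 69.1 to 106 CPM (median 78.9) in control and 40.3 to 81.7 CPM (median 65.8) in CIE astrocytes, and 6 of 9 CIE libraries lay below every control. Its log2 fold change in astrocytes was -0.40 (SE 0.132, adjusted p = 0.0847), and the value passed the threshold with DESeq2 (adjusted p = 0.0494), with the mouse-number range in the edgeR model (-0.40, adjusted p = 0.0354) and without CIE mouse 08 (-0.46, adjusted p = 0.0313). It was also the member with the most negative change in homogenate, from 148 to 127 CPM at the medians and with 6 of 9 CIE libraries below every control there too, a log2 fold change of -0.30 (SE 0.10, adjusted p = 0.286). Nlgn1, the neuroligin of excitatory synapses, had 22.3 to 39.6 CPM (median 30.8) in control and 25.1 to 35.5 CPM (median 30.4) in CIE astrocytes. No CIE library lay outside the control range, and the log2 fold change was 0.02, with a 95% interval from -0.21 to 0.25 (adjusted p = 0.950).

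The scaffold Caskin1 showed the largest fall of the 9 genes in astrocytes. It ranged from 237 to 401 CPM (median 322) in control mice and from 161 to 326 CPM (median 203) in CIE mice, with 6 of 9 CIE libraries below every control and 8 of 9 below the control median. CIE mouse 08 was again the highest. The log2 fold change was -0.57 (SE 0.137, adjusted p = 0.0224). In homogenate all 9 CIE libraries lay below the control median of 308 CPM, with a median of 278, and the log2 fold change was -0.14 (SE 0.0598, adjusted p = 0.463).

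The postsynaptic scaffolds Dlg4 and Shank3 did not pass the test in astrocytes. Dlg4 had 54.5 to 82.2 CPM (median 70.0) in control and 45.4 to 103 CPM (median 49.8) in CIE astrocytes, where 6 of 9 CIE libraries lay below every control and 1 above. Its log2 fold change was -0.26 (SE 0.148, adjusted p = 0.322), and in homogenate -0.11 (SE 0.137, adjusted p = 0.903). Without CIE mouse 06 the astrocyte value was -0.41 (adjusted p = 0.0294). Shank3, which links PSD-95 complexes to the cytoskeleton, had 29.4 to 66.0 CPM (median 55.7) in control and 30.0 to 74.0 CPM (median 40.3) in CIE astrocytes. Its log2 fold changes were -0.21 (SE 0.203, adjusted p = 0.591) there and -0.13 (adjusted p = 0.812) in homogenate.

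Camk2g encodes the gamma subunit of calcium/calmodulin-dependent kinase II. It ranged from 126 to 177 CPM (median 145) in control and from 89.1 to 158 CPM (median 104) in CIE astrocytes. As for Nlgn2, 8 of 9 CIE libraries lay below every control, and CIE mouse 08 was the exception. Its log2 fold change was -0.42 (SE 0.111, adjusted p = 0.0339). In homogenate Camk2g was the only gene of the 9 with a positive log2 fold change, of 0.05 (SE 0.117, adjusted p = 0.966), from a median of 261 to one of 270.2 CPM.

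A single mouse could end these calls. Without control mouse 22, whose Nlgn2 and Camk2g levels were the highest of the controls, none of the 3 passed: Caskin1 stood at -0.53 or lower in every fit without 1 mouse but had an adjusted p = 0.0509 here, Nlgn2 had one of 0.0544 and Camk2g one of 0.0763. Caskin1 and Nlgn2 passed in the other 16 fits that left out 1 mouse. Camk2g passed in 12 of 17, as it also missed the threshold without mouse 24, 25, 26 or 36. Fewer genes of any kind were called in these fits. Without mouse 22 there were 358 of 12925, against 661 of 12878 with all mice. Without mouse 24, 25, 26 or 36 there were 417, 448, 354 and 370.

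The range of mouse numbers moved with the size of these falls. The labels number the mice under 10, from 19 to 26 and from 35 to 41, and do not say whether the ranges were handled apart. Among the 7 mice numbered 19 to 26 the groups did not overlap in the 3 genes, and CIE was below control by 0.87 (Caskin1), 0.57 (Nlgn2) and 0.69 (Camk2g) on the log2 scale. Among the 6 mice numbered 35 to 41 the differences were -0.48, -0.38 and -0.33, with no overlap for Nlgn2 and Camk2g, and among the 4 numbered under 10 they were -0.18, -0.13 and -0.08. The sign was the same in each range for these genes and for Nlgn3, at -0.63, -0.27 and -0.10, and for Nrxn2, at 0.56, 0.18 and 0.04 in the same order of ranges. Dlg4 and Shank3 differed by 0.23 and 0.27 in mice under 10 and by negative values in the others. When the 4 mice numbered under 10 were left out, which was decided with the data in view, Dlg4 reached the threshold with a log2 fold change of -0.45 (adjusted p = 0.0117), and Caskin1, Nlgn2 and Camk2g had -0.71, -0.50 and -0.54.

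**Figure D2:**
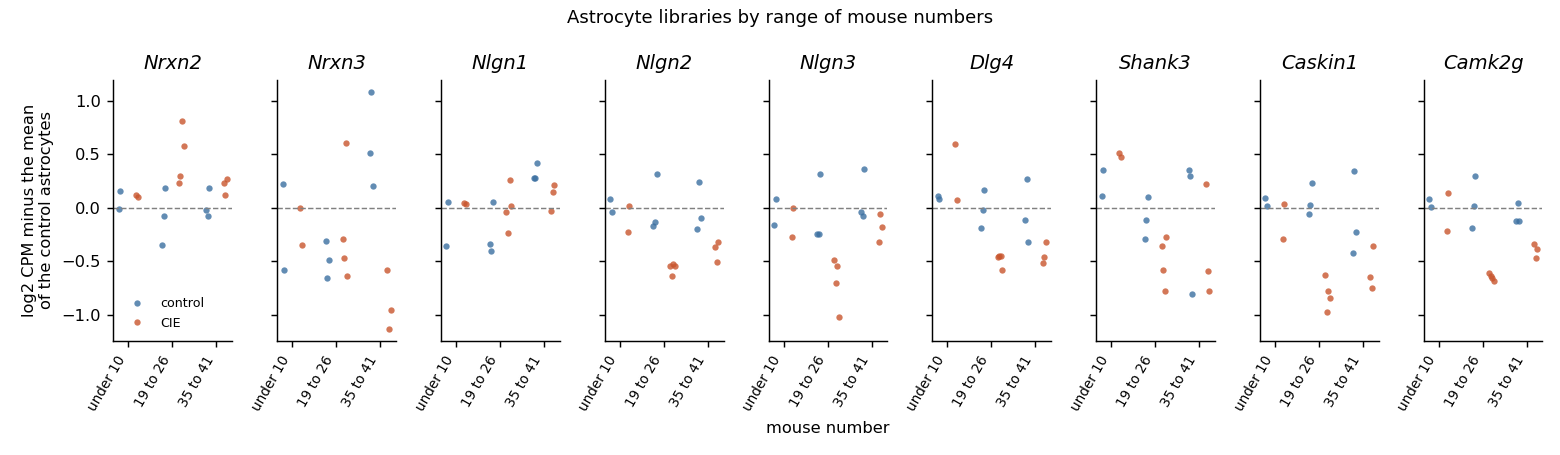
Astrocyte libraries by range of mouse numbers on the horizontal axis, with log2 CPM minus the mean of all control astrocytes on the vertical axis, control in blue and CIE in orange. In the mice numbered 19 to 26 the CIE points of Nlgn2, Caskin1 and Camk2g lie apart from the controls, and in those under 10 the groups of these 3 genes overlap.

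Some markers of other cells differed between the treatments in the same libraries, but few were called and the summed lists overlapped. Of 17 neuron markers tested in astrocytes 14 had negative log2 fold changes, at a median of -0.37, but none was called lower and 1, Tubb3, was higher (1.09, adjusted p = 0.00628). The summed list ranged from 278 to 808 CPM in control and from 311 to 873 CPM in CIE astrocytes. The mean log2 level of 12 oligodendrocyte precursor markers was 5.12 ± 0.396 (SD) in the 8 control and 4.61 ± 0.516 (SD) in the 9 CIE astrocyte libraries, and 1 of them, Gpr17, was called lower (-1.40, adjusted p = 0.0488). CIE mouse 08, the CIE library highest in Caskin1, Nlgn2, Nlgn3 and Camk2g, had the highest mean level of this list among CIE mice, 5.51. The summed CPM of the list overlapped, at 1152 to 1883 CPM in control and 1162 to 1719 CPM in CIE, and no marker of the list was at 0 in any astrocyte library. The 12 oligodendrocyte markers summed to 18867 to 26910 CPM in control and 19601 to 28091 CPM in CIE astrocytes. Of these 12, 8 had positive values, 7 had an unadjusted p under 0.05 and 1, Mobp, was called higher (1.03, adjusted p = 0.0127). The 20 microglia markers summed to 2164 to 9229 and 3877 to 9232 CPM. Of the 30 astrocyte markers 22 had negative values, at a median of -0.16, with 2 called higher and 1 lower.

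With the mean level of the neuron list as a covariate, Caskin1 (-0.57, adjusted p = 0.0402) and Nlgn2 (-0.40, adjusted p = 0.0479) were called and Camk2g missed the threshold at -0.42 (adjusted p = 0.0536). With the microglia list all 3 were called, as was Nrxn2 (adjusted p = 0.0446), and with the astrocyte list the same 3 as without a covariate. With the oligodendrocyte precursor list, a covariate chosen after the data were seen, none of the 9 passed, and Caskin1, Nlgn2 and Camk2g stood at -0.45, -0.31 and -0.31 (adjusted p = 0.112, 0.133 and 0.165). With the oligodendrocyte list, chosen in the same way, they stood at -0.48, -0.38 and -0.38 (adjusted p = 0.0637, 0.0656 and 0.0950). Over all 12878 genes tested, 661 were called without a covariate, 416 with the neuron, 982 with the microglia and 752 with the astrocyte list. With the precursor list 290 were called and with the oligodendrocyte list 312, so the calls moved over all genes and not only among the 9. The part of these cells in the falls was not tested.

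In total homogenate 8 of the 9 genes had negative log2 fold changes, with a median of -0.12 against 0.0061 over all 13982 genes tested, and 0 of 9 passed the threshold, which 0.25% of genes did. At an unadjusted p under 0.05 there were 2, Nlgn3 (unadjusted p = 0.00723, adjusted p = 0.286 in edgeR) and Caskin1 (unadjusted p = 0.0290, adjusted p = 0.463 in edgeR). DESeq2 also called 0 of the 9 genes, against 1.26% of all genes. The 95% intervals in homogenate reached down to -0.26 for Caskin1, -0.25 for Nlgn2 and -0.18 for Camk2g on the log2 scale, so falls in homogenate as large as the point estimates in astrocytes lay outside them. Oligodendrocyte markers in the homogenate had positive values in 12 of 12 genes at a median of 0.45, none of them called, and the median of the 30 neuron markers was -0.0038.

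**Figure D3:**
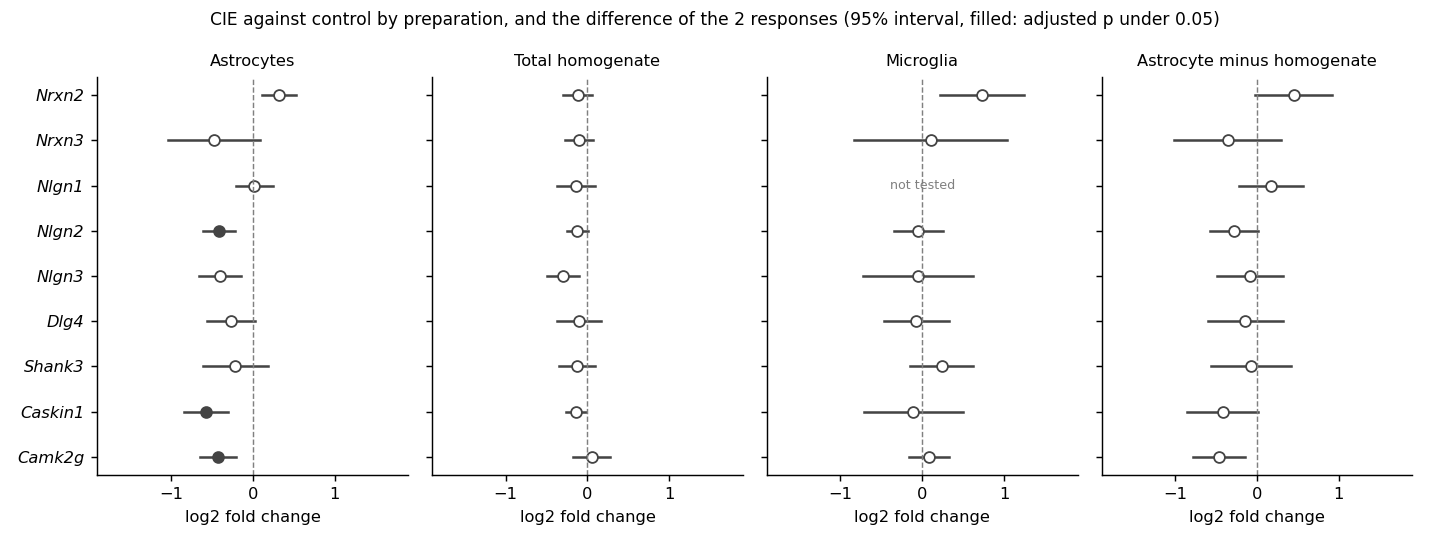
Log2 fold change of CIE against control in astrocytes, total homogenate and microglia, and the astrocyte change minus the homogenate change, with 95% intervals on the horizontal axis and the 9 genes on the vertical axis. Filled points passed an adjusted p under 0.05: Nlgn2, Caskin1 and Camk2g in astrocytes. Nlgn1 had too few counts to be tested in microglia.

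The test of the difference itself, the astrocyte change minus the homogenate change, called 0 of the 9 genes. It called 1 of 14379 genes in all (0.00695%), while 717, of which Camk2g was the 1 member, had an unadjusted p under 0.05. DESeq2 called 0 of the 9, against 0.0245% of genes. Camk2g had a log2 difference of -0.46 (SE 0.163, 95% interval from -0.78 to -0.14, unadjusted p = 0.00651, adjusted p = 0.711). Caskin1 differed by -0.42 (interval from -0.85 to 0.01) and Nlgn2 by -0.28 (interval from -0.58 to 0.02), both with unadjusted p-values over 0.05. The difference of Nrxn2 was 0.45 (interval from -0.03 to 0.92), and that of Nrxn3 -0.36 (interval from -1.02 to 0.30). For Nlgn3, with fold changes of -0.40 and -0.30 in the 2 preparations, it was -0.09 (interval from -0.49 to 0.32). The model took 1 spread per gene from all 51 libraries, microglia included, and did not pair the libraries of a mouse. With a block per mouse, or with only the astrocyte and homogenate libraries, 0 of the 9 were called as well. No fit did both. The falls called in astrocytes are therefore not shown to differ from the homogenate by these tests at this number of mice.

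The same comparison can be read within each mouse, since both libraries came from it. The astrocyte level of Camk2g was below that of the homogenate by a mean of 0.86 ± 0.311 (SD, n = 8) on the log2 scale in control mice and by 1.32 ± 0.286 (SD, n = 9) in CIE mice. Caskin1 went from 0.08 ± 0.220 above homogenate in controls to 0.35 ± 0.309 below it in CIE mice, and 8 of 9 CIE mice had less Caskin1 in astrocytes than in homogenate. As a share of the homogenate of the same mouse, Caskin1 was 107 ± 15.6% in control and 79.9 ± 18.1% in CIE mice, Camk2g 56.1 ± 12.5% and 40.6 ± 8.30%, Nlgn2 20.9 ± 3.98% and 17.1 ± 2.34%, and Nrxn2 42.7 ± 8.49% and 59.0 ± 16.1%. The ranges of the 2 groups overlapped in all 4 genes.

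**Figure D4:**
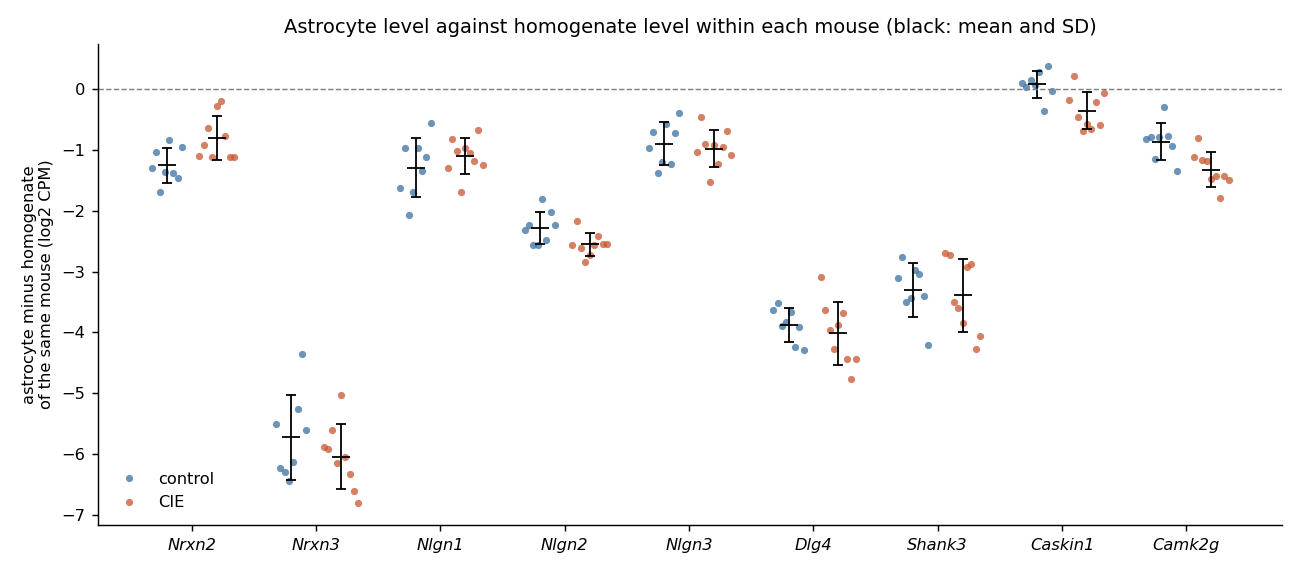
Astrocyte level minus homogenate level of the same mouse, in log2 CPM on the vertical axis, for the 9 genes in control (blue) and CIE (orange) mice, with the mean and SD in black. The means of Caskin1 and Camk2g lie lower in CIE mice and that of Nrxn2 higher, with overlap between the groups in each gene.

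In microglia 0 of the 8 genes tested were called, against 3.47% of 10761 genes, and Nlgn1, with 1 to 18 counts per library, did not pass the filter on low counts. Nrxn2 had the largest value, a log2 fold change of 0.73 (SE 0.262, unadjusted p = 0.0108, adjusted p = 0.133). It ranged from 30.6 to 86.5 CPM (median 36.6) in control and from 21.3 to 130 CPM (median 76.8) in CIE microglia, and 8 of 9 CIE libraries lay above the control median. It passed the threshold without mouse 06 or without mouse 22, with an adjusted p = 0.0381 at the lowest. Nrxn2 thus had positive values in both kinds of isolated cells and a negative one in homogenate, and none of the 3 was called by edgeR without a covariate, while the astrocyte value passed with DESeq2 and with the microglia list as covariate. In the same microglia comparison 12 of 12 oligodendrocyte markers had positive log2 fold changes (median 0.60, 1 called). Negative ones were seen in 20 of 20 microglia markers (median -0.26, 3 called). Of 8 oligodendrocyte precursor markers tested 6 were positive (median 0.63), as were 15 of 20 astrocyte markers (median 0.17), and 0 of either list were called. The part of these cells in the Nrxn2 value was not tested. Caskin1 (-0.11), Nlgn2 (-0.05) and Camk2g (0.08) had adjusted p-values of 0.940, 0.946 and 0.856 in microglia, and DESeq2 also called none, against 5.88% of all genes. The astrocyte change minus the microglia change was called for 0 of the 9 genes, against 0.529% of all genes (1.29% with DESeq2, which called 0 of the 9 too). It was -0.47 for Camk2g (unadjusted p = 0.00897, adjusted p = 0.253 in edgeR), -0.42 for Caskin1 and -0.34 for Nlgn2 (unadjusted p = 0.0444). The sign did not set these genes apart, as all 9 values were negative, at a median of -0.42. Nlgn1 had -0.69 (SE 0.348), Nrxn3 -0.52 (SE 0.463), Shank3 -0.42 (SE 0.272) and Nrxn2 -0.40 (SE 0.256). These were less precise than the value of Camk2g (SE 0.174), and Nlgn1 and Nrxn3 had few counts in microglia.

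The genes that fell moved together among the astrocyte libraries. After the mean of each treatment was subtracted, log2 CPM of Nlgn2 had a Pearson correlation of 0.91 with Caskin1 and 0.91 with Camk2g over the 17 libraries, and Caskin1 with Camk2g one of 0.85. Dlg4 followed them at 0.70 to 0.73 and Shank3 at 0.51 to 0.64, while Nrxn2 had -0.33, -0.16 and -0.32 with Caskin1, Nlgn2 and Camk2g and Nlgn1 between -0.03 and 0.17. Among the 12877 other genes tested, those most like Caskin1 were Phkg1, a subunit of phosphorylase kinase, and Dclk2, a doublecortin-like kinase (0.95 each), then Sema4a, a semaphorin (0.92). Nearest to Nlgn2 were Grik5, a kainate receptor subunit, at 0.92, then Camk2g and Caskin1, and nearest to Camk2g were Sema4a and Grik5 at 0.93 each and Nlgn2. Of these, Sema4a was called lower in CIE astrocytes and Phkg1, Dclk2 and Grik5 were not. All these libraries share the enrichment on beads, the depth of a library and its mix of cells, so the correlations describe them and are no test.

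Other genes of the same machinery were called lower in small numbers, and none was called higher, in a comparison where 2.22% of all genes were lower and 5.13% differed. Of 16 other neurexins, neuroligins and binding partners tested in astrocytes, 1 was lower: Mdga1, a membrane protein that binds neuroligins, fell by 0.61 on the log2 scale (adjusted p = 0.0449), with 15.0 ± 2.49 CPM in the 8 control and 9.77 ± 2.92 CPM in the 9 CIE libraries. Igsf21 (-0.65), Apba2 (-0.31) and Adgrl3 (-0.20) did not pass. Of 35 other synaptic adhesion molecules 4 were lower: the ephrin receptor Ephb3 (-0.64, adjusted p = 0.00383), its ligand family member Efnb2 (-0.80, adjusted p = 0.00449), Lrrc4, a partner of netrin-G (-0.40, adjusted p = 0.0260) and Slitrk2 (-0.55, adjusted p = 0.0465). The medians of the 2 lists were -0.11 and -0.16.

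Of 26 other scaffold proteins 2 were lower, against 2.22% of all genes and with a list median of -0.04: Caskin2, the paralog of Caskin1, fell from 178 ± 17 to 143 ± 14.4 CPM (-0.32, adjusted p = 0.0225), and Dlgap1, which joins PSD-95 to Shank proteins, from 86.2 ± 14.7 to 63.4 ± 8.45 CPM (-0.44, adjusted p = 0.0226). Cnksr2 (-1.07, adjusted p = 0.0552) did not pass. Caskin2 was the only gene of these lists called in homogenate (-0.36, adjusted p = 0.0480), where 0.25% of all genes were called and it went from 50.9 ± 4.36 to 39.4 ± 4.14 CPM. Its astrocyte level in controls was above that of the homogenate by 1.8 on the log2 scale (adjusted p = 1.14e-14), unlike that of Caskin1.

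Of the 8 other CaM kinase II subunits, inhibitors and calmodulins 0 were called in astrocytes by edgeR, against 5.13% of all genes. At an unadjusted p under 0.05 there were 0 of the 8, against 2703 of 12878 genes, and their median log2 fold change was -0.00089. Camk2d, a subunit found in many tissues, had -0.13 (adjusted p = 0.454), Camk2b -0.46 (adjusted p = 0.501) and Camk2a 0.50 (adjusted p = 0.659), and the inhibitor Camk2n1 had 0.28 (adjusted p = 0.395). The Camk2a medians went the other way, from 36.9 CPM in control to 29.4 CPM in CIE astrocytes, where the highest library had 374 CPM. All 8 were lower in control astrocytes than in homogenate, where 40.8% of all genes were lower and 77% differed. Camk2a was lower by 6.77 and Camk2b by 6.18 on the log2 scale, against 1.19 for Camk2d and 0.87 for Camk2g. The study names 4 hub genes beside Caskin1 and Nlgn2, all of them chosen on these samples and thus no independent evidence. Of the 4, 2 were lower, against 2.22% of all genes: Sema4a (-0.60, adjusted p = 0.0142) and the NMDA receptor subunit Grin2c (-0.74, adjusted p = 0.0240). The GABA receptor Gabbr1 (-0.26, adjusted p = 0.0582) and the matrix protein Bcan (-0.39, adjusted p = 0.0619) did not pass.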

How the data were processed

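The authors sequenced poly(A)-selected RNA as paired reads, cut adapters (Cutadapt 1.8), aligned the reads by STAR 2.5.0a (mm10), filtered duplicates by Picard 1.141 and counted per gene symbol by HTSeq 0.6.1p1, per the paper and the processing notes. The deposited counts are whole numbers without normalization. The annotation release and strand setting are not given in the sources used here, and the samples that the study left out are not analysed here. Lines that name no gene held 22.1% to 67.1% of each library and were dropped.

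Groups and mouse numbers came from the sample labels. CIE was tested against control within each preparation with edgeR 4.0.16 (quasi-likelihood test after filterByExpr, TMM scaling, R 4.3.3, Benjamini-Hochberg adjustment over all genes, threshold 0.05), and preparations were compared in 1 model of all 51 libraries. The standard error is the log2 fold change over the square root of F, and 95% intervals are 1.96 standard errors wide on each side. CPM use TMM factors over all libraries, and log2 CPM a prior count of 2. Libraries of 1 mouse number come from 1 animal, which pairs them. The deviations of astrocyte and homogenate libraries of a mouse from their group means had a median correlation of 0.112 (above 0.1 in 9 of 17 mice). Each mouse gave 1 library per preparation, and no 2 libraries were identical.

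The 9 genes, the lists and the tests were chosen with earlier results of these data known. All 9 genes are named, with up to 4 genes of each list by the smallest adjusted p in astrocytes and the 3 genes most like each called gene at 1 CPM or more, except 1 that is not reported here. Alternatives were DESeq2 1.42.0, RLE scaling, no filter, marker levels or the range of mouse numbers as covariates, a block per mouse, other sets of libraries and leaving out each mouse. Coordinates and sequences were taken from GENCODE M21 with Python 3.11.15 and Biopython. The test was checked on simulated data. Of 100 genes changed by 0.5 on the log2 scale, it called 56 within astrocytes. In the astrocyte minus homogenate difference it called 16 of 100 such genes.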

Additional observations from a re-analysis of the deposited data

Results flagged for a closer look

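In 3 of the 54 groups of libraries examined, 1 library lay far from the others of its group in log2 CPM, and chance flags about 1 in 20 groups. All 3 were in microglia, where these genes had few counts. Caskin1 in CIE microglia was highest in mouse 23, at 42.6 CPM against 14.8 CPM in the next library, with a gap of 0.537 of the whole range. Nlgn2 in control microglia was highest in mouse 35, at 57.6 CPM against 42.7 CPM, a gap of 0.618 of the range. Nrxn3 in CIE microglia was lowest in mouse 06, at 0 CPM against 3.36 CPM, a gap of 0.525 of the range.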

How the results depend on the processing

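The counts of called genes among the 9 moved with the setting in astrocytes. DESeq2 called 5, and with the level of oligodendrocyte markers or of oligodendrocyte precursor markers as a covariate, both chosen after the data were seen, 0 were called, against 3. Leaving out 1 mouse gave 0 to 4 in astrocytes and 0 to 1 in microglia, and 0 in homogenate and in both differences between responses. The counts over all genes moved more widely: in astrocytes 661 became 1157 with DESeq2, 1129 with mouse-number range as covariate, 1132 without the mice numbered under 10, 416 with the neuron, 312 with the oligodendrocyte and 290 with the oligodendrocyte precursor list, and 354 to 1001 without 1 mouse. In microglia 373 became 767 (DESeq2), 775 (range covariate) and 182 to 684 without 1 mouse. In homogenate 35 became 204 (DESeq2), 81 (range covariate), 125 (spread shared by all libraries), 7 without the mice under 10 and 15 to 71 without 1 mouse. The 76 genes of the astrocyte minus microglia difference became 182 (DESeq2), 44 without the filter or with only these 2 preparations and 23 to 124 without 1 mouse, and the 1 gene of the astrocyte minus homogenate difference became 5 (DESeq2), 2 (range covariate), 0 (RLE scaling, and without the mice under 10) and 0 to 2. With a block per mouse the comparisons between preparations kept their counts among the 9 genes, 8 in control astrocytes, 9 in control microglia and 0 in both differences, and Camk2g had -0.47 (adjusted p = 0.687 in edgeR) for astrocytes minus homogenate. Signs changed in values that were never called. Nlgn1 in astrocytes was -0.021 without the mice under 10 and -0.048 to 0.075 without 1 mouse, and Shank3 there was 8.3e-05 with the precursor list. Nrxn3 in microglia was -0.032 with the range covariate. Without 1 mouse, microglia gave -0.077 to 0.23 for Nrxn3, -0.33 to 0.11 for Caskin1, -0.13 to 0.057 for Nlgn2, -0.19 to 0.12 for Nlgn3 and -0.23 to 0.0010 for Dlg4. Camk2g in homogenate ran from -0.031 to 0.10, Shank3 in astrocytes minus homogenate from -0.18 to 0.056 and Dlg4 in astrocytes minus microglia from -0.35 to 0.028. The cause of these changes was not tested. Low counts limit Nrxn3 in astrocytes and most of these genes in microglia.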

Other observations

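Astrocytes also secrete proteins that induce synapses, and these were taken as a list of 18. In control mice 10 of them were higher and 4 lower in the astrocyte libraries than in homogenate, with a median log2 difference of 1.33, in a comparison where 77% of all genes differed and 40.8% were lower. None of the 18 was called in CIE astrocytes by edgeR, against 5.13% of all genes, 5 had an unadjusted p under 0.05, and the median log2 fold change was 0.0019. The most negative of the named genes was the proteoglycan Ncan, at 631 ± 94.8 CPM (SD, n = 8) in control and 418 ± 163 CPM (SD, n = 9) in CIE astrocytes (-0.60, adjusted p = 0.0943). The thrombospondins Thbs4 (1.35, adjusted p = 0.0734) and Thbs3 (0.69, adjusted p = 0.122) had positive values at low levels, Thbs4 going from 2.34 ± 2.02 to 6.14 ± 3.32 CPM.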
